A study of Homo sapiens with 20 samples.

Results

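The genes described here are the human kinesins, the motor proteins that walk along or take apart microtubules, as measured in B5/589 mammary epithelial cells after induction of a p53 transgene. They were taken as every gene whose symbol begins with KIF or KIFC followed by a digit in the platform annotation, through transcript clusters (the probes of 1 transcription unit) that carry 1 symbol, with the brightest cluster standing for a gene that has several. The rule found 42 of the 18417 genes with a named cluster. Of these, 41 are kinesins and 1, KIF25-AS1, is an antisense RNA next to KIF25 and no kinesin. By their known roles 13 kinesins were placed in a mitotic class, 17 in a transport class and 11 in neither. KIF4B is not named, since its only cluster also carries the symbol KIF4A, and it is not analysed here on its own.

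B5/589 is an immortalized human mammary epithelial line, and all 20 arrays came from such cells carrying an inducible p53 transgene that doxycycline switches on. There were 5 groups of 4 arrays. Cells without doxycycline (0 ng) were collected at 24 h, and cells given 3 ng or 5 ng were collected at 12 h and at 24 h. No volume goes with the doses, and the labels do not state whether the cells are 1 clone. Uninduced cells were collected at 24 h only, so against them the 12 h groups differ in dose and in time, which cannot be told apart. It is not stated whether replicate arrays stem from different cultures, so a p-value here reflects only how far these samples scatter, and that scatter may be technical. The question put to the kinesins was how the mitotic and the transport motors differed in their response to the lower and the higher dose.

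Kinesins share a motor domain that burns ATP to move on microtubules. In dividing cells some slide the fibres of the spindle apart, some shorten or brake microtubule ends, some move chromosome arms and others bundle the midzone through which the cell is finally cut. Their mRNAs are known to be abundant in cells that are about to divide. The transport kinesins carry vesicles, mitochondria and other cargo in cells that divide and in cells that do not, and an epithelial cell uses them all the time. Many cell cycle genes that are repressed after p53 activation are known to be bound by the DREAM complex through a short promoter element, the CHR (cell cycle genes homology region), often downstream of CCAAT boxes bound by NF-Y.

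Values are deposited signals on a log2 scale. They are read against other arrays for the same gene and not as amounts between genes. The exception is a rough rank of mean signals, used below for dim genes and for cell type markers. The arrays were not equally bright, with array medians from 4.54 to 5.54, and the median difference of all genes from 0 ng at 24 h was -0.23 at 3 ng and -0.24 at 5 ng. After quantile normalization, which gives all arrays the same distribution, these medians were 0.04 and 0.03. Values or counts on that scale are therefore given for main results whose call or direction depends on it, though not for every gene and comparison. Arrays of a group correlated at 0.9904 or more. No gene was left out for low signal, and KIF15, KIF24, KIF1A, KIF5A, KIF5C, KIF6 and KIF9 were among the dimmest 30% of genes by their mean over all arrays. CDKN1A, the p53 target that encodes the cell cycle inhibitor p21, was higher by 0.72 ± 0.14 at 3 ng and by 1.44 ± 0.14 at 5 ng at 24 h (log2 difference ± SE, n = 4 arrays a group; limma adjusted p = 0.00095 and 1e-07). The mean signals of 6 of the 7 measured mammary epithelial markers, namely KRT5, KRT14, KRT8, KRT18, EPCAM and CDH1, lay above the median of all genes, and KRT19 did not. Of the markers of other cell types, 1 of 6 mesenchymal (COL1A1), 1 of 3 immune (CD14), 0 of 3 endothelial and 0 of 3 neuronal genes did so.

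The 100 bases that end just before the annotated start of transcription are printed for 10 kinesins (RefSeq, GRCh38.p14), as examples of mitotic and transport promoters. The examples were not picked by a rule. KIF14, KIF18B, KIFC1 and KIF20B, whose CHR matches lay after the start, are not among them. The capitals mark matches to words searched on both strands. The CHR was searched as TTTGAA, which reads TTCAAA where it lies on the other strand. The variant TTCGAA, which reads alike on both strands, was counted as a CHR as well. The CCAAT box reads ATTGG where it lies on the other strand. The 4 E2F words were TTTGGCGC, TTTCGCGC, TTTGCCGC and TTTCCCGC, of which the first reads GCGCCAAA on the other strand. No word overlaps another by its letters in the stretches shown. Sequences run 5′ to 3′ along the gene.
KIF11, chr10:92593030-92593129, plus strand: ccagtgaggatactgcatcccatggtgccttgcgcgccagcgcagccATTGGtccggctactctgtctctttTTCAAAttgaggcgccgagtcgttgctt
KIF18A, chr11:28108157-28108256, minus strand: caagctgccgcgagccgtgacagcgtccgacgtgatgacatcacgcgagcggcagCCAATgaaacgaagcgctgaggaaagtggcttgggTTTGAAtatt
KIF23, chr15:69414249-69414348, plus strand: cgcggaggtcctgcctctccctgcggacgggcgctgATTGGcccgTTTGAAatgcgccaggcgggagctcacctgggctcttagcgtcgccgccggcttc
KIF4A, chrX:70290004-70290103, plus strand: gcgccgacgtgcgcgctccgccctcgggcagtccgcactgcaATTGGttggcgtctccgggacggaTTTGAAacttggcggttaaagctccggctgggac
KIF22, chr16:29790651-29790750, plus strand: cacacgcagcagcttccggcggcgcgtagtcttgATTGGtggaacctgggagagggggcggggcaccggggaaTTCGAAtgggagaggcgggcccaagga
KIF15, chr3:44761694-44761793, plus strand: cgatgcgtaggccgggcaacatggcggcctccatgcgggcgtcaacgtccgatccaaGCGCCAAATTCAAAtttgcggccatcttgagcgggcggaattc
KIF2C, chr1:44739737-44739836, plus strand: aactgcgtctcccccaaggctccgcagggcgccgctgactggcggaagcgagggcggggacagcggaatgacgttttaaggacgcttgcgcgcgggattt
KIF20A, chr5:138179012-138179111, plus strand: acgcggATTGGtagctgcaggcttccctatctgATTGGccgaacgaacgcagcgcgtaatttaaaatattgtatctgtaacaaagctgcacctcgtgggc
KIF1B, chr1:10210470-10210569, plus strand: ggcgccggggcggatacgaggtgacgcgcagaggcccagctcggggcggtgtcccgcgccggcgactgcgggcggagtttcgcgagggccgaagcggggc
KIF5B, chr10:32056426-32056525, minus strand: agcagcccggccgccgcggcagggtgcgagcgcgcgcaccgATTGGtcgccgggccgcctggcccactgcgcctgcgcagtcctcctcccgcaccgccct

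In KIF11, KIF18A, KIF4A, KIF22 and KIF23 a CCAAT box on one of the strands was followed by a CHR closer to the start. The CHR of KIF11 lay 28 to 23 bases before the start and its CCAAT box 53 to 49 bases before it. In KIF15 no CCAAT box was found, and an E2F word abutted the CHR. The printed stretch of KIF2C held none of the words. That of KIF20A held 2 CCAAT boxes and no CHR. KIF1B, a transport motor, had its CCAAT boxes farther upstream than the bases shown, and KIF5B had its CHR there too.

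Over the whole windows, which run from 250 bases before the start to 50 after it, 10 of 13 mitotic kinesins held a CHR. It was found in 1 of the 12 transport kinesins that have a window (KIF5B), in 1 of 8 other kinesins (KIF24) and in 17.4% of the 14237 measured genes with a window. In KIF14, KIF18B, KIFC1 and KIF20B the match lay after the start. KIF2B, KIF2C and KIF20A had none. CCAAT boxes were found in 10 of 13 mitotic, 4 of 12 transport and 3 of 8 other kinesins, against 42.2% of measured genes. Both elements together were found in 9 of 13, 1 of 12 and 1 of 8, against 7.19%. An E2F word was found in 1 mitotic kinesin, KIF15, in 0 transport kinesins, in 1 other kinesin, KIF25, and in 5.51% of measured genes. A match is a run of letters and not a measured binding site, and 8 kinesins had no window in the table.

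**Figure D1:**
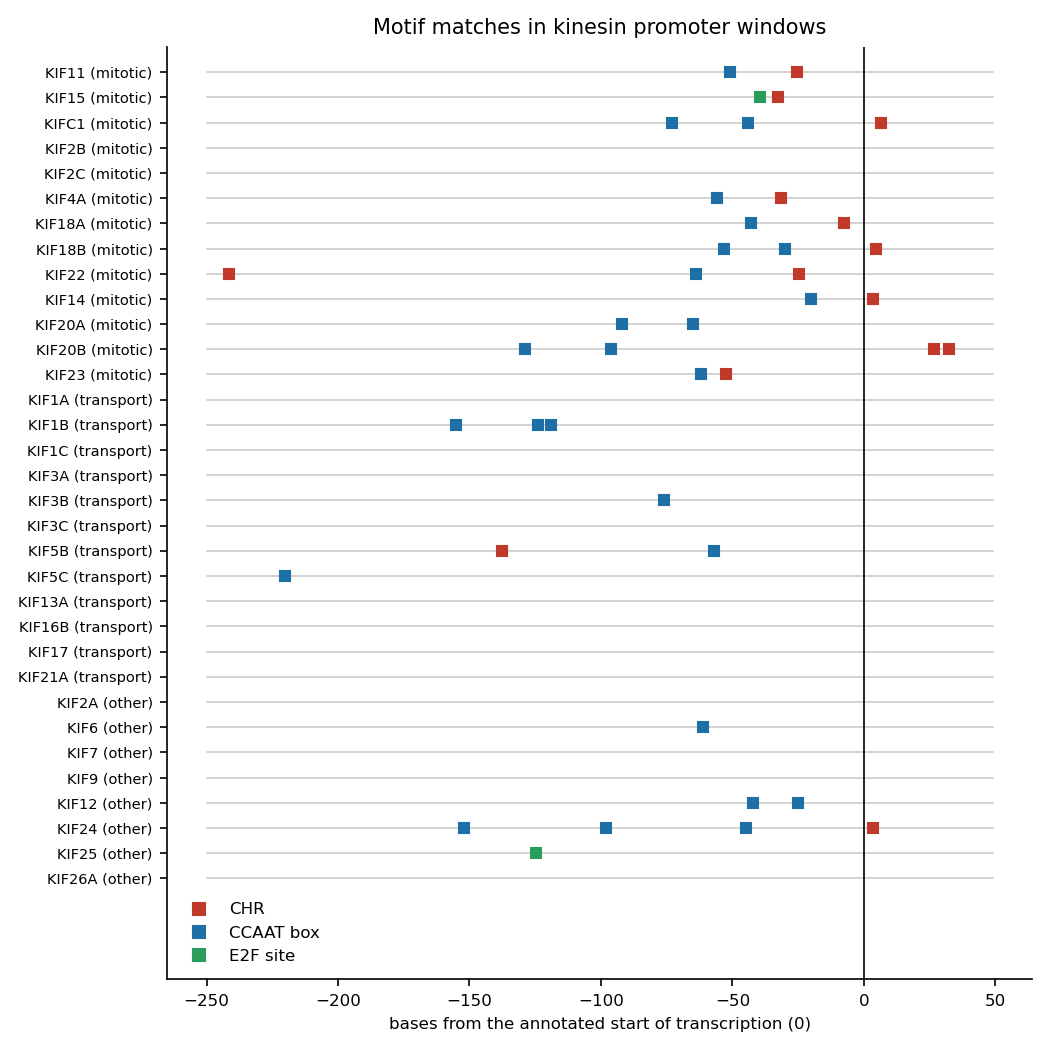
Matches to the CHR (red), CCAAT box (blue) and E2F words (green) in the 13 mitotic, 12 transport and 8 other kinesins with a promoter window, by distance in bases from the annotated start of transcription at 0. Matches from every window of a gene are drawn on 1 line. The CHR matches lie mostly among the 13 mitotic kinesins at the top and near the start, and KIF24 and KIF5B are the only others with one.

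After 24 h of induction 12 of the 13 mitotic kinesins were lower than in uninduced cells at both doses, and the odd one out was KIF2B. Their log2 differences ran from -1.37 for KIF18B to -3.03 for KIF11 at 3 ng, and from -1.70 for KIF18B to -4.76 for KIF11 at 5 ng. The class median was -2.63 at 3 ng and -3.90 at 5 ng, beside -0.23 and -0.24 for all genes. Of all 18417 genes, 23.0% were called lower at 3 ng and 23.5% at 5 ng (limma, adjusted p under 0.05). The largest limma adjusted p among the 12 was 1.3e-05 (KIF18B) at 3 ng and 1.9e-06 (KIF20A) at 5 ng. In each of the 12 every induced array lay below every uninduced array at both doses, as in 27.9% of all genes at 3 ng and 27.0% at 5 ng. In RNA from whole cultures, fewer dividing cells and less of an mRNA in each cell cannot be told apart. Both doses were compared with the same 4 uninduced arrays. At 5 ng for 24 h the means of KIF11, KIF14, KIF15, KIF18A, KIF20B and KIF4A lay below 4.8, the group's mean array median. Whether these low signals lie above background was not analysed here.

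**Figure D2:**
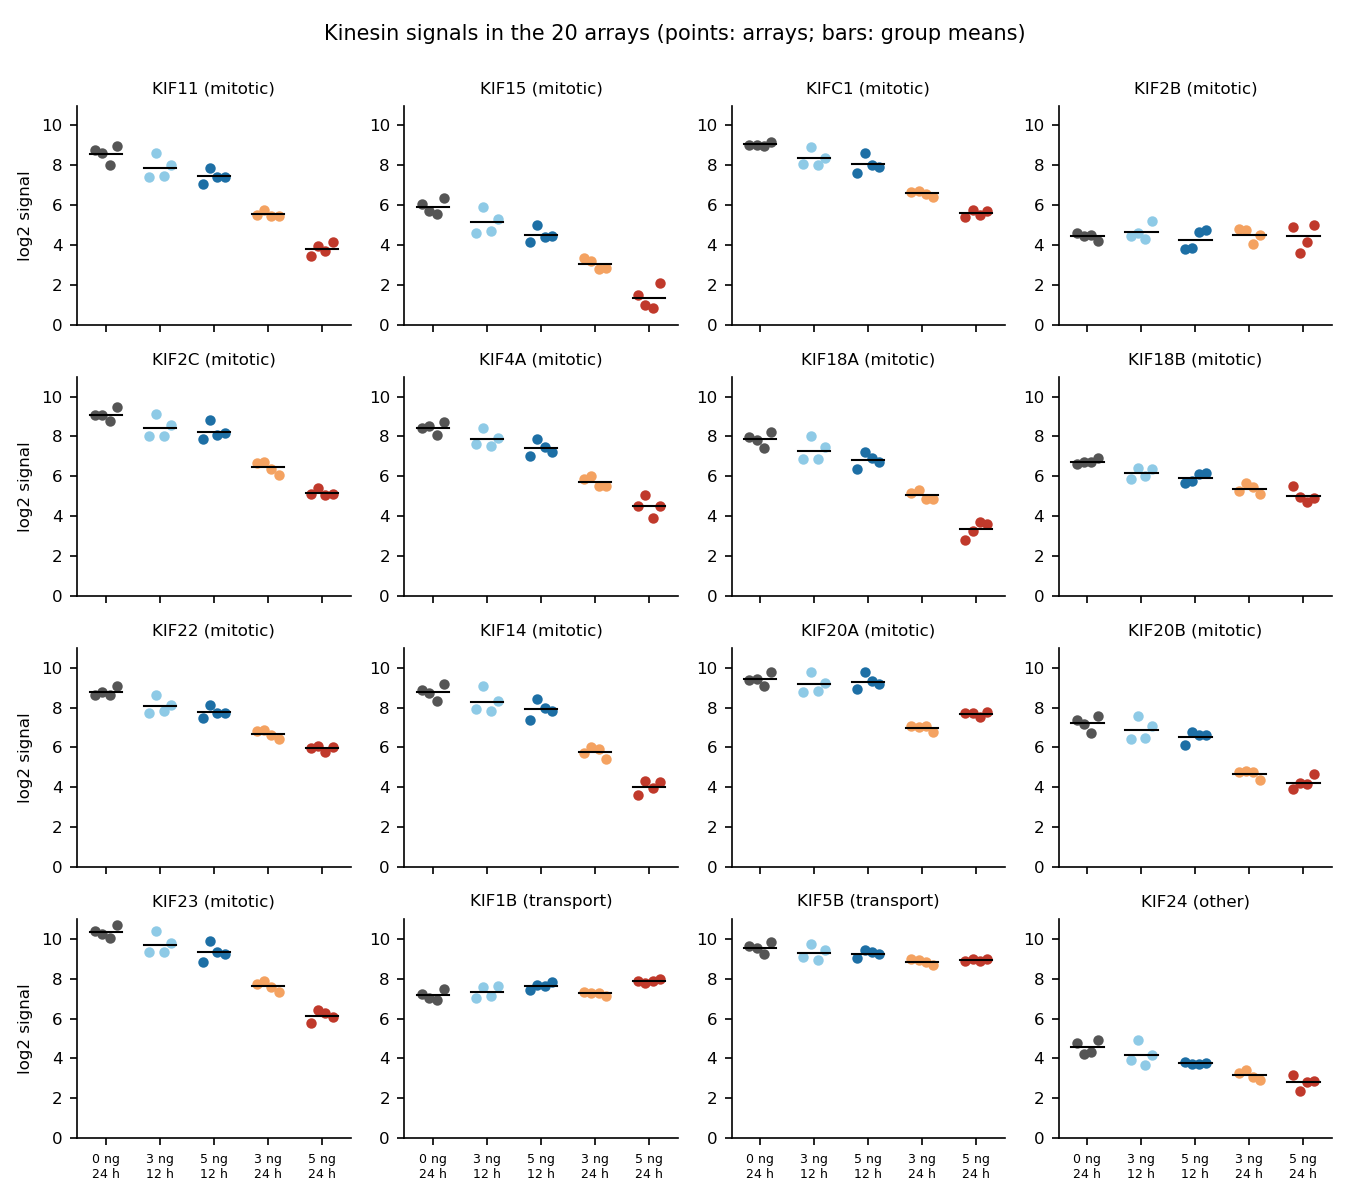
Deposited log2 signal of the 13 mitotic kinesins, of the transport kinesins KIF1B and KIF5B and of KIF24 in each of the 20 arrays, by dose and time of doxycycline. Points are arrays and bars are means of 4 arrays. In 12 mitotic kinesins both 24 h induced groups lie below the uninduced group, KIF2B is level, and KIF20A lies higher at 5 ng than at 3 ng.

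The first motors build and hold the bipolar spindle. KIF11 (transcript cluster 7929258, chr10:92593130-92655395, gene positions from RefSeq on GRCh38.p14) is the kinesin-5 Eg5, which pushes the spindle poles apart and is the target of a class of antimitotic compounds. Its log2 signal in uninduced cells was 8.77, 8.62, 8.03 and 8.96. At 24 h it was 5.50, 5.79, 5.47 and 5.48 with 3 ng and 3.48, 3.97, 3.72 and 4.17 with 5 ng. The 3 groups did not overlap, and the highest dose gave the lowest values. The log2 difference from 0 ng was -3.03 ± 0.25 at 3 ng, 8.20-fold lower, and -4.76 ± 0.25 at 5 ng, 27.1-fold lower. At 12 h the signal was 7.43, 8.61, 7.45 and 8.01 with 3 ng and 7.08, 7.88, 7.43 and 7.42 with 5 ng, and these 2 groups overlapped.

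KIF15 (transcript cluster 8079237, chr3:44761794-44868687) is a kinesin-12 that can keep a spindle bipolar when KIF11 is weak. Its signal was 6.08, 5.70, 5.56 and 6.35 in uninduced cells, 3.34, 3.22, 2.80 and 2.87 at 3 ng and 1.52, 1.0, 0.88 and 2.09 at 5 ng at 24 h. It was lower at each step of dose with no overlap, with differences of -2.86 ± 0.29 and -4.55 ± 0.29. Values at 12 h were 4.61, 5.94, 4.69 and 5.33 with 3 ng and 4.15, 5.03, 4.39 and 4.45 with 5 ng.

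KIFC1 (transcript cluster 8179564, chr6:33391461-33409896) is a minus-end-directed kinesin-14 that focuses spindle poles and gathers extra centrosomes. It read 9.03, 9.03, 8.98 and 9.18 in uninduced cells, 6.69, 6.70, 6.55 and 6.43 at 3 ng and 5.43, 5.77, 5.50 and 5.71 at 5 ng at 24 h. The groups were again ordered by dose without overlap, with differences of -2.46 ± 0.20 and -3.45 ± 0.20. After 12 h the signal was 8.07, 8.94, 8.03 and 8.39 with 3 ng and 7.62, 8.61, 8.03 and 7.93 with 5 ng. A second cluster of KIFC1 gave -2.45 and -3.26 at 24 h.

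A further group acts on chromosomes and microtubule ends. KIF18A (transcript cluster 7947248, chr11:28020619-28108156) is a kinesin-8 that damps the swings of chromosomes on the metaphase plate. It read 7.96, 7.84, 7.40 and 8.24 in uninduced cells, 5.18, 5.31, 4.89 and 4.85 at 3 ng and 2.83, 3.27, 3.70 and 3.60 at 5 ng. Its differences of -2.80 ± 0.25 and -4.51 ± 0.25 placed it with KIF11, KIF14 and KIF15 among the 4 kinesins that fell furthest. Signals at 12 h were 6.88, 8.0, 6.85 and 7.45 with 3 ng and 6.36, 7.23, 6.90 and 6.74 with 5 ng.

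KIF18B (transcript cluster 8016139, chr17:44924711-44947773), a kinesin-8 that limits astral microtubules, read 6.62, 6.72, 6.71 and 6.91 in uninduced cells, 5.29, 5.65, 5.45 and 5.10 at 3 ng and 5.52, 4.96, 4.73 and 4.93 at 5 ng. Both doses lay below uninduced cells but overlapped each other, and its differences of -1.37 ± 0.18 and -1.70 ± 0.18 were the smallest of the 12 at each dose. In the 12 h groups the signal was 5.85, 6.43, 6.01 and 6.37 with 3 ng and 5.67, 5.76, 6.11 and 6.18 with 5 ng.

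KIF2C (transcript cluster 7901010, chr1:44739837-44767767), known as MCAK, takes microtubules apart at the kinetochore and so helps to correct wrong attachments. It read 9.06, 9.07, 8.76 and 9.46 in uninduced cells, 6.66, 6.72, 6.38 and 6.08 at 3 ng and 5.13, 5.43, 5.06 and 5.12 at 5 ng. The order by dose was free of overlap, with differences of -2.63 ± 0.24 and -3.90 ± 0.24. Its 12 h values were 8.0, 9.15, 8.04 and 8.58 with 3 ng and 7.89, 8.84, 8.09 and 8.15 with 5 ng.

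KIF2B (transcript cluster 8008544, chr17:53822927-53825193) is a related depolymerase of the early spindle. It read 4.60, 4.46, 4.49 and 4.23 in uninduced cells, 4.80, 4.76, 4.07 and 4.52 at 3 ng and 4.93, 3.63, 4.16 and 5.03 at 5 ng, and 4.48, 4.60, 4.32 and 5.20 with 3 ng and 3.80, 3.88, 4.66 and 4.75 with 5 ng at 12 h. All groups overlapped, and the differences at 24 h were 0.09 ± 0.28 and -0.01 ± 0.28. It passed the test in 0 of the 8 comparisons by limma (adjusted p = 0.88 and 0.99 against uninduced cells at 24 h). Whether its signal lies above background was not analysed here.

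KIF4A (transcript cluster 8168146, chrX:70290104-70420886) is a chromokinesin that shapes chromosome arms and later shortens the midzone. It read 8.41, 8.50, 8.07 and 8.74 in uninduced cells, 5.87, 6.02, 5.54 and 5.52 at 3 ng and 4.52, 5.07, 3.91 and 4.52 at 5 ng. The groups were ordered by dose with no overlap, with differences of -2.69 ± 0.24 and -3.93 ± 0.24. The 12 h arrays read 7.61, 8.44, 7.50 and 7.93 with 3 ng and 7.0, 7.89, 7.48 and 7.24 with 5 ng. The cluster shared by KIF4A and KIF4B had means of 7.01, 5.04 and 4.08 at 0, 3 and 5 ng at 24 h.

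KIF22 (transcript cluster 7994620, chr16:29790751-29805385), known as Kid, pushes chromosome arms away from the poles. It read 8.65, 8.78, 8.61 and 9.06 in uninduced cells, 6.81, 6.88, 6.64 and 6.43 at 3 ng and 5.99, 6.08, 5.76 and 6.0 at 5 ng. Its differences were -2.08 ± 0.19 and -2.82 ± 0.19, again without overlap. Values at 12 h were 7.75, 8.64, 7.85 and 8.12 with 3 ng and 7.47, 8.15, 7.73 and 7.71 with 5 ng. A second cluster of KIF22 gave -2.09 and -2.84.

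The last group works in the midzone and in cytokinesis. KIF23 (transcript cluster 7984540, chr15:69414349-69448427), known as MKLP1, is the motor of the centralspindlin complex, which bundles midzone fibres and recruits the machinery of the cleavage furrow. It read 10.37, 10.26, 10.04 and 10.71 in uninduced cells, 7.72, 7.86, 7.57 and 7.34 at 3 ng and 5.76, 6.41, 6.27 and 6.10 at 5 ng. Its differences of -2.72 ± 0.24 and -4.21 ± 0.24 were ordered by dose with no overlap of the groups. After 12 h the signal was 9.32, 10.40, 9.32 and 9.76 with 3 ng and 8.82, 9.90, 9.33 and 9.23 with 5 ng.

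KIF14 (transcript cluster 7923189, chr1:200551497-200620751) is a midbody kinesin needed for the last cut. It read 8.86, 8.72, 8.35 and 9.16 in uninduced cells, 5.72, 6.02, 5.91 and 5.44 at 3 ng and 3.60, 4.34, 3.96 and 4.25 at 5 ng. Its differences of -3.0 ± 0.26 and -4.74 ± 0.26 made it 26.6-fold lower at 5 ng. Signals at 12 h were 7.91, 9.08, 7.82 and 8.34 with 3 ng and 7.40, 8.41, 7.98 and 7.84 with 5 ng.

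KIF20B (transcript cluster 7929078, chr10:89701590-89774934), known as MPP1, works at the midbody. It read 7.38, 7.16, 6.71 and 7.57 in uninduced cells, 4.77, 4.81, 4.75 and 4.38 at 3 ng and 3.93, 4.20, 4.17 and 4.65 at 5 ng. Both doses lay below uninduced cells and overlapped each other, with differences of -2.53 ± 0.24 and -2.97 ± 0.24. In the 12 h groups the signal was 6.44, 7.59, 6.47 and 7.06 with 3 ng and 6.10, 6.76, 6.64 and 6.64 with 5 ng.

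KIF20A (transcript cluster 8108301, chr5:138179112-138187723), known as MKLP2, brings the chromosomal passenger complex to the midzone. It read 9.39, 9.45, 9.06 and 9.76 in uninduced cells, 7.08, 7.05, 7.06 and 6.76 at 3 ng and 7.73, 7.72, 7.51 and 7.77 at 5 ng at 24 h. All induced arrays lay below all uninduced ones, but the 5 ng arrays lay above the 3 ng arrays. The differences from uninduced cells were -2.43 ± 0.21 at 3 ng and -1.73 ± 0.21 at 5 ng, which is 5.38-fold and 3.32-fold lower. Its 12 h values were 8.78, 9.80, 8.83 and 9.25 with 3 ng and 8.92, 9.77, 9.31 and 9.20 with 5 ng, which overlapped the uninduced arrays at both doses.

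**Figure D3:**
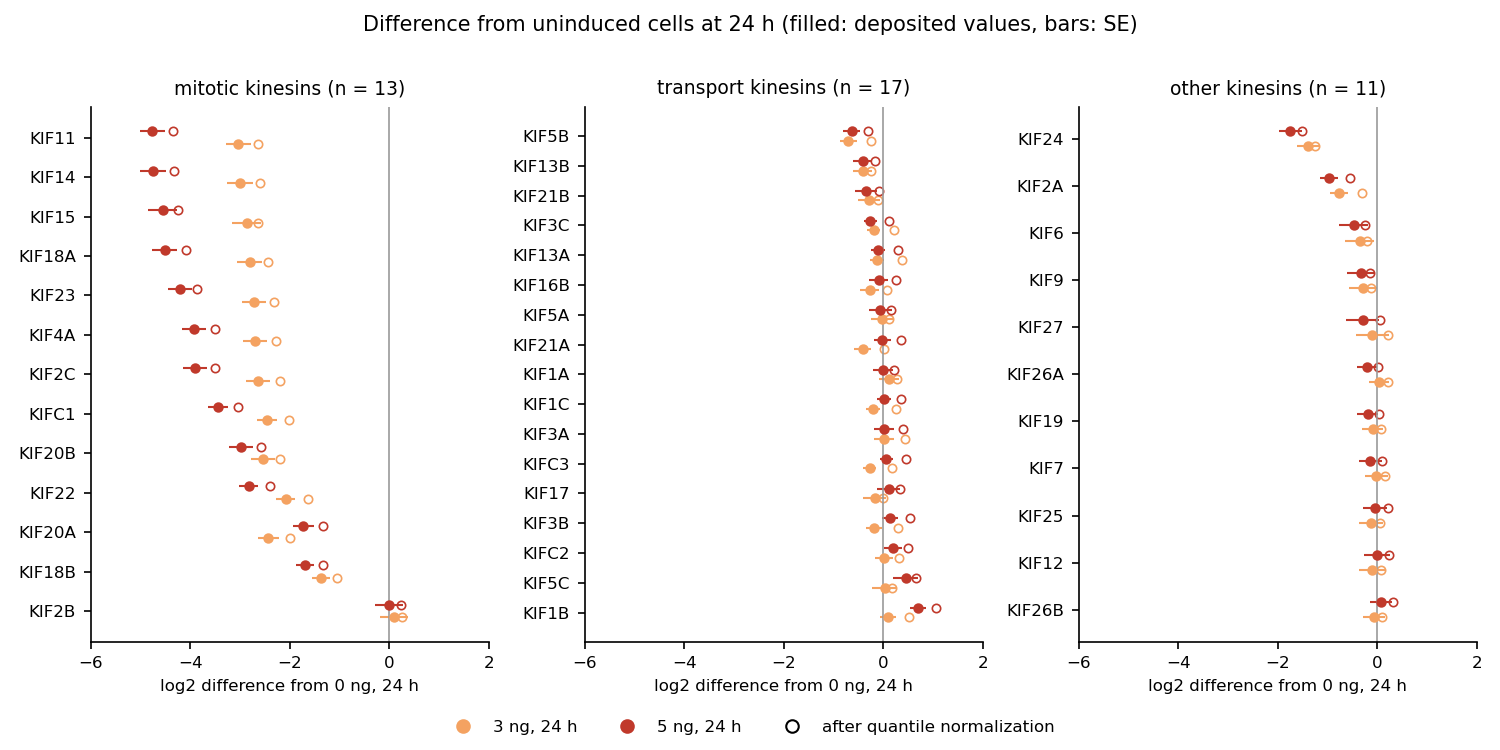
Log2 difference from uninduced cells at 24 h for the 41 kinesins by class, at 3 ng (orange) and 5 ng (red). Filled points are deposited values with standard errors from limma, and open points are the same differences after quantile normalization. The mitotic kinesins other than KIF2B lie between -1.37 and -4.76, while transport kinesins lie between -0.70 and 0.70 on the deposited values.

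Most mitotic kinesins were lower at 5 ng than at 3 ng at 24 h. Between 5 and 3 ng, 9 of 13 were called lower and 0 higher, beside 0.755% of all genes called lower (limma, adjusted p under 0.05). The class median of this difference was -1.23, against 0.00 for all genes. KIF14 fell by a further 1.74, KIF11 by 1.72, KIF18A by 1.71 and KIF15 by 1.68 on the log2 scale, and KIFC1 and KIF22 by 0.99 and 0.73. The call for KIF22 (limma adjusted p = 0.034) was lost when any 1 of 7 of the 8 arrays was left out, with differences from -0.77 to -0.67, and was kept without replicate 4 of 3 ng at 24 h. KIF18B at -0.34 ± 0.18 and KIF20B at -0.44 ± 0.24 did not pass (adjusted p = 0.69 and 0.7 by limma), nor did KIF2B at -0.10 ± 0.28.

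KIF20A went the other way, with a difference between 5 and 3 ng of 0.70 ± 0.21 and arrays that did not overlap. On the deposited values this missed the threshold (limma adjusted p = 0.1). After quantile normalization it was 0.65 and passed (limma adjusted p = 0.00063). It also passed with array centring, without the dimmest genes, with only the compared groups in the fit and with a trended, robust fit. On the deposited values it passed in 0 of the 8 fits that left out 1 array, with differences from 0.62 to 0.75. With the mean of a gene's clusters it did not pass either. The share of all genes whose 5 ng arrays all lay above their 3 ng arrays was 8.31%, and KIF20A was the only mitotic kinesin among them. KIF23 and the kinase AURKB were chosen as partners for a comparison within arrays after their values were seen. Set against KIF23, its fellow midzone motor, within the same array, KIF20A minus KIF23 was -0.98, -0.81, -0.98 and -0.95 in uninduced cells and -0.64, -0.81, -0.51 and -0.58 at 3 ng. At 5 ng for 24 h it was 1.97, 1.31, 1.24 and 1.67. Only the change of such a difference between groups has a meaning, and it lay above every other group at 5 ng for 24 h. At 12 h it was -0.54, -0.60, -0.49 and -0.51 with 3 ng and 0.10, -0.13, -0.02 and -0.03 with 5 ng. Both 12 h groups lay above every uninduced array. Against AURKB, a subunit of the complex that KIF20A carries, KIF20A was at -0.06, -0.06, -0.56 and -0.13 in uninduced cells, 0.04, -0.04, -0.02 and -0.12 at 3 ng and 1.20, 1.76, 1.36 and 1.56 at 5 ng at 24 h. The same difference at 12 h was 0.21, 0.36, 0.02 and 0.53 with 3 ng and 0.87, 1.02, 0.77 and 1.03 with 5 ng. At 12 h it lay above every uninduced array at both doses, and at 24 h with 5 ng only.

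**Figure D4:**
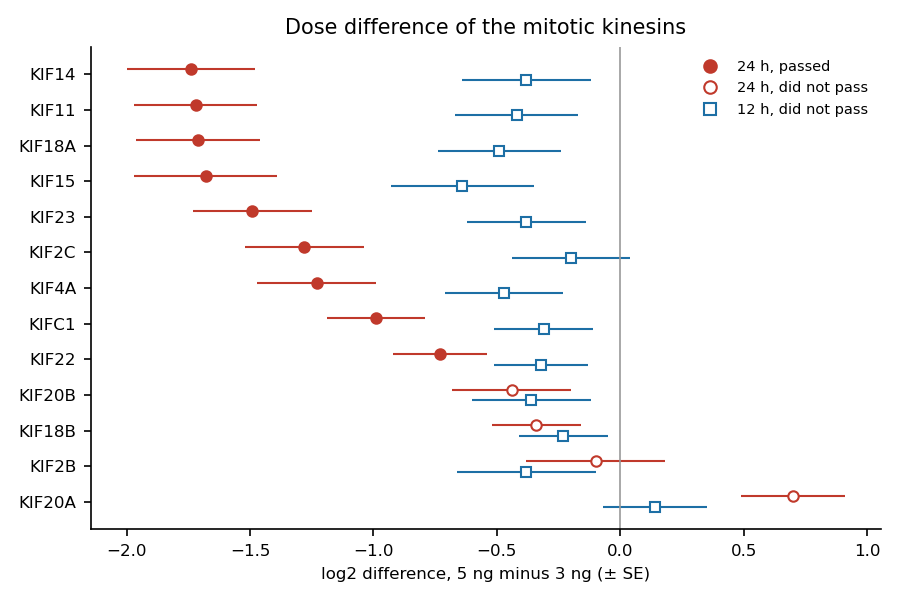
Log2 difference between 5 ng and 3 ng of doxycycline for the 13 mitotic kinesins, at 24 h (red circles) and 12 h (blue squares), with standard errors from limma on the deposited values. Filled symbols passed at an adjusted p under 0.05. At 24 h 9 kinesins lie below 0 and pass, KIF20A lies at 0.70, and at 12 h none passes.

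Lower signals were also found at 12 h. More mitotic kinesins passed against uninduced cells with 5 ng than with 3 ng, but 0 of 13 were called between these doses. Against uninduced cells at 24 h, 10 of 13 mitotic kinesins were called lower with 5 ng, beside 11.5% of all genes, with a class median of -1.01. The differences of those called ran from -0.81 ± 0.18 for KIF18B to -1.42 ± 0.29 for KIF15. KIF20B at -0.67 ± 0.24 (limma adjusted p = 0.065), KIF20A at -0.11 ± 0.21 and KIF2B at -0.17 ± 0.28 did not pass. After quantile normalization KIF20B was at -0.44 and passed (limma adjusted p = 0.047). KIF14 and KIF2C lost their call when certain single arrays were left out, in both cases uninduced replicate 4 and replicates 1 and 3 of the 12 h arrays with 5 ng. For KIF14 uninduced replicate 1 and replicate 4 with 5 ng at 12 h did so too.

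With 3 ng at 12 h only KIF22 was called lower, at -0.69 ± 0.19 (limma adjusted p = 0.049), beside 1.24% of all genes. At an unadjusted p under 0.05, 9 of 13 mitotic kinesins were lower, as were 2626 of all 18417 genes. The class median was -0.58. Replicate 2 of this group was high in most mitotic kinesins, for example 8.61 for KIF11 and 9.08 for KIF14. It also had the highest mean of the group for the transport kinesins, 6.63, and for the other kinesins, 5.22. Without this array 10 mitotic kinesins were called lower. How many of all genes were called in that fit was not analysed here, so this count has no background beside it. After quantile normalization of all arrays 4 mitotic kinesins were called lower, beside 7.42% of all genes. Leaving out replicate 1, 3 or 4 of the group, or any 1 of the 4 uninduced arrays, ended the call for KIF22.

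Between the doses at 12 h 0 of 13 mitotic kinesins were called by limma, beside 0.0217% of all genes called in either direction. At an unadjusted p under 0.05, 1 of the 13 was lower, as were 813 of 18417 genes. The class median of the difference was -0.38. From 12 to 24 h, 12 of 13 fell at each dose, beside 4.36% of all genes at 3 ng and 3.55% at 5 ng, with class medians of -2.08 and -2.90. KIF14 fell most, by 2.52 at 3 ng and by 3.87 at 5 ng. KIF18B fell least, by 0.79 and 0.89, and leaving out replicate 2 or 4 of the 12 h arrays or replicate 4 of the 24 h arrays ended its call at 3 ng. Whether the dose difference itself grew between 12 and 24 h was tested as an interaction. By limma 0 of 41 kinesins passed, as did 0.00% of all genes. At an unadjusted p under 0.05, 8 mitotic kinesins were lower, as were 92 of 18417 genes.

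Ranked by group mean, 11 of 13 mitotic kinesins had the same order, from 0 ng at 24 h down through 3 ng at 12 h, 5 ng at 12 h and 3 ng at 24 h to 5 ng at 24 h. The difference between the neighbours 3 and 5 ng at 12 h did not pass in any of them. The group means of KIF20A had the doses turned round at both times, but at 12 h the difference was 0.14 ± 0.21 and the arrays overlapped. KIF2B followed no such order. The same order was seen in 1 of 17 transport kinesins (KIF21B) and in 2 of 11 others (KIF2A and KIF24). Over the 20 arrays the signals of 2 mitotic kinesins correlated at a median Pearson r of 0.97 (78 pairs, on either scale), against 0.42 for transport kinesins (136 pairs, 0.17 after quantile normalization). These arrays share the group differences and their brightness.

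Few transport kinesins passed the test on the deposited values. On the deposited values 1 of 17 was called lower and 0 higher at 3 ng for 24 h, and 1 lower and 1 higher at 5 ng, beside 23.0% and 23.5% of all genes called lower and 1.50% and 4.52% called higher at 3 and 5 ng. Their class median was -0.18 and -0.01. This count rests on the scale. After quantile normalization 6 were called higher at 3 ng and 10 at 5 ng, with 1 lower at each dose, beside 14.9% and 19.7% of all genes called higher and 13.0% and 18.0% called lower. The class medians were then 0.17 and 0.33. Array centring on the median gave 3 and 9 called higher, beside 1335 and 3020 of all 18417 genes. Against uninduced cells at 24 h, no transport kinesin differed by as much as any of the 12 mitotic kinesins called lower at the same dose, on either scale. The quantile-normalized differences at 5 ng ran from -0.30 to 1.07, and those of the 12 from -4.34 to -1.34.

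KIF1B (transcript cluster 7897561, chr1:10210570-10381603), a kinesin-3 that carries synaptic vesicle precursors and mitochondria, was the transport motor called higher at 5 ng on both scales. It read 7.22, 7.03, 6.91 and 7.49 in uninduced cells, 7.35, 7.27, 7.29 and 7.11 at 3 ng and 7.86, 7.77, 7.86 and 7.96 at 5 ng at 24 h. The 5 ng arrays lay above the other 24 h groups, which overlapped. The difference from uninduced cells was 0.70 ± 0.16 at 5 ng (limma adjusted p = 0.0017), 1.62-fold, and 1.07 after quantile normalization. At 3 ng it was 0.09 ± 0.16, and 0.52 after quantile normalization, where it passed. Between the doses it was 0.61 ± 0.16 (limma adjusted p = 0.037), beside 1.79% of all genes called higher. On the deposited values this call was lost when any 1 of the 8 arrays was left out (0.56 to 0.64). After quantile normalization the difference between the doses was 0.54 and passed (limma adjusted p = 1.3e-05), and it also passed with array centring. At 12 h KIF1B read 7.03, 7.59, 7.12 and 7.62 with 3 ng and 7.42, 7.68, 7.64 and 7.81 with 5 ng. The latter was called against uninduced cells at 0.47 ± 0.16, beside 3.44% of all genes called higher. Leaving out any of uninduced replicates 1 to 3, or any of replicates 2 to 4 with 5 ng at 12 h, ended that call. After quantile normalization KIF1B was higher with 3 ng at 12 h than in uninduced cells, by 0.35 (limma adjusted p = 0.00065). Between the doses at 12 h it was then higher at 5 ng, also by 0.35 (limma adjusted p = 0.0044).

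KIF5B (transcript cluster 7932911, chr10:32009015-32056425), the heavy chain of conventional kinesin found in most tissues, was the transport motor called lower on both scales. It read 9.61, 9.52, 9.22 and 9.84 in uninduced cells, 8.99, 8.91, 8.82 and 8.67 at 3 ng and 8.86, 8.96, 8.87 and 8.97 at 5 ng at 24 h. All induced arrays at 24 h lay below the uninduced arrays, and the 2 doses overlapped. The differences were -0.70 ± 0.17 and -0.63 ± 0.17 (limma adjusted p = 0.004 and 0.0061), and -0.25 and -0.30 after quantile normalization. The 12 h arrays read 9.10, 9.74, 8.93 and 9.44 with 3 ng and 9.05, 9.43, 9.32 and 9.21 with 5 ng, and KIF5B was not called there.

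Of the other transport kinesins, KIF3C, a subunit of a kinesin-2, was called lower with 5 ng at 12 h at -0.65 ± 0.13 (limma adjusted p = 0.0014), and at 24 h its difference from uninduced cells was -0.26 ± 0.13 with 5 ng. The remaining 14, namely KIF1A, KIF1C, KIF3A, KIF3B, KIF5A, KIF5C, KIF13A, KIF13B, KIF16B, KIF17, KIF21A, KIF21B, KIFC2 and KIFC3, passed in 0 of the 8 comparisons on the deposited values by limma. At 5 ng for 24 h their differences ran from -0.41 (KIF13B) to 0.45 (KIF5C). After quantile normalization KIF13A, KIF16B, KIF1C, KIF21A, KIF3A, KIF3B, KIF5C, KIFC2 and KIFC3 were called higher at 5 ng. With array centring KIF13A and KIF16B were not called, and KIF1A was. KIF3B, a subunit of the kinesin-2 that builds cilia, was at 0.14 as deposited and 0.53 after quantile normalization. Between the doses at 12 h, and from 12 to 24 h at each dose, 0 transport kinesins were called by limma on the deposited values, beside 0.0706% and 0.424% of all genes called higher from 12 to 24 h at 3 and 5 ng. The same held for 3 ng at 12 h against uninduced cells, with 1 lower at an unadjusted p under 0.05, beside 2626 of 18417 genes. At that unadjusted p there were 0 transport kinesins between the doses at 12 h, 3 lower from 12 to 24 h at 3 ng and 1 higher at 5 ng. Of all 18417 genes, 813 were lower and 269 higher between the doses at 12 h at that p. From 12 to 24 h 3142 were lower at 3 ng and 403 higher at 5 ng. The 2 clusters of KIF5A, a neuronal heavy chain, were -0.06 and 0.20 at 5 ng.

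The mean of the 13 mitotic kinesins was also set against the mean of the 17 transport kinesins within each array, which lessens the part of array brightness without removing it. On the deposited values the mitotic minus the transport mean was 1.76, 1.82, 1.56 and 1.78 in the uninduced arrays, 1.73 ± 0.12 (SD, n = 4). At 24 h it was -0.28, -0.38, -0.56 and -0.55 with 3 ng, -0.44 ± 0.14, and -1.65, -1.41, -1.79 and -1.48 with 5 ng, -1.58 ± 0.17. At 12 h it was 1.21 ± 0.19 with 3 ng and 0.89 ± 0.32 with 5 ng. The 24 h groups did not overlap each other or any other group, while the 12 h groups overlapped each other. The level of this difference has no meaning of its own, since it sets probes of different genes against each other, and its change between groups does.

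**Figure D5:**
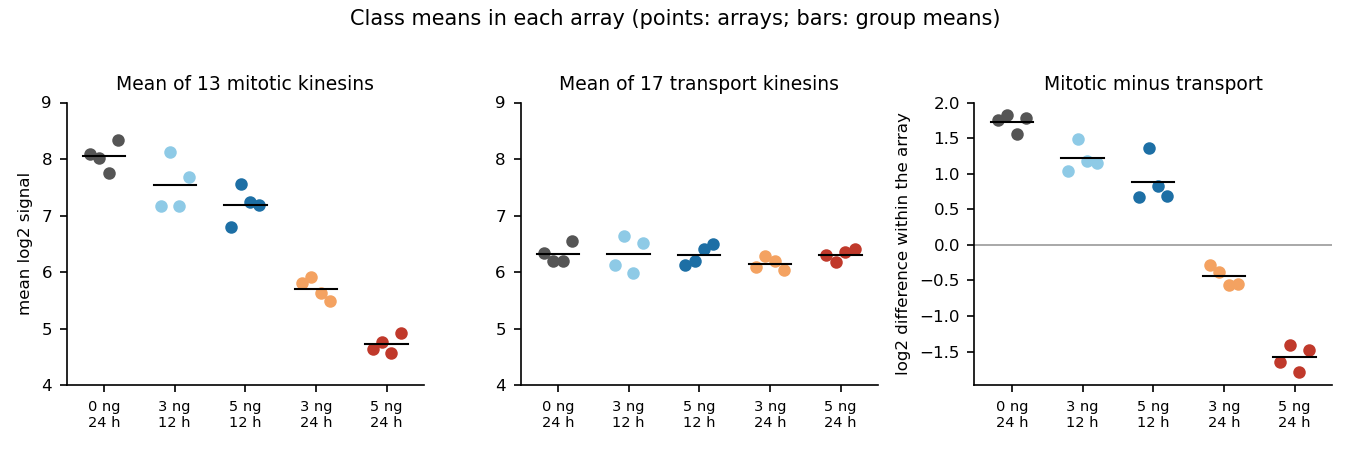
Mean log2 signal of the 13 mitotic kinesins (left), of the 17 transport kinesins (middle) and their difference within the array (right) in each of the 20 arrays. Points are arrays and bars are group means. The transport means of the groups lie between 6.15 and 6.32, the mitotic means between 4.72 and 8.05, and the difference runs from 1.73 in uninduced cells to -1.58 at 5 ng for 24 h.

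Of the 11 kinesins in neither class, KIF2A and KIF24 were called lower at both doses at 24 h, beside 23.0% and 23.5% of all genes. KIF24 (transcript cluster 8160771, chr9:34252380-34333671), a depolymerase at the mother centriole that holds back cilia, read 4.79, 4.21, 4.30 and 4.94 in uninduced cells, 3.29, 3.41, 3.06 and 2.91 at 3 ng and 3.17, 2.37, 2.83 and 2.89 at 5 ng. The induced arrays lay below all uninduced ones, with differences of -1.39 ± 0.23 and -1.75 ± 0.23 (limma adjusted p = 0.00017 and 6.3e-06), and the doses overlapped. Values at 12 h were 3.91, 4.93, 3.65 and 4.16 with 3 ng and 3.84, 3.74, 3.73 and 3.75 with 5 ng.

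KIF2A (transcript cluster 8105523, chr5:62306206-62391025) is a depolymerase used at spindle poles and in growing neurites, and counting it as mitotic moved no count of called mitotic kinesins by more than 1. It read 8.06, 7.75, 7.43 and 8.14 in uninduced cells, 7.18, 7.05, 7.05 and 7.02 at 3 ng and 6.75, 6.87, 6.93 and 6.99 at 5 ng, and 7.07, 7.88, 7.13 and 7.39 with 3 ng and 6.74, 7.17, 7.31 and 7.32 with 5 ng at 12 h. Every induced array at 24 h was below the uninduced ones, with differences of -0.77 ± 0.18 and -0.96 ± 0.18 (limma adjusted p = 0.0043 and 0.00042). After quantile normalization these were -0.31 and -0.55, both passed, and the 3 ng arrays overlapped the uninduced ones. On the deposited values KIF2A was also called with 5 ng at 12 h, at -0.71. Leaving out uninduced replicate 4 or replicate 1 of the 12 h arrays with 5 ng ended this 12 h call. The call for KIF24 in the same comparison, -0.80, ended without either of these, and also without uninduced replicate 1 or replicate 3 of the 12 h arrays with 5 ng. The other 9, namely KIF6, KIF7, KIF9, KIF12, KIF19, KIF25, KIF26A, KIF26B and KIF27, passed in 0 of the 8 comparisons by limma, with differences at 5 ng for 24 h from -0.47 (KIF6) to 0.07 (KIF26B). KIF25-AS1, the antisense RNA, was at 0.09 ± 0.22 and 0.13 ± 0.22 and did not pass.

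CENPE, the kinetochore kinesin-7 that carries chromosomes to the metaphase plate, has no KIF symbol and was looked at beside the class. It fell by 2.70 at 3 ng and by 3.99 at 5 ng at 24 h, and by a further 1.28 between the doses (limma adjusted p = 1.5e-07, 1.5e-10 and 0.0064). MKI67, a marker of cycling cells, was at -2.81 ± 0.21 and -4.07 ± 0.21. All 22 genes on a list of spindle and midzone partners of the mitotic kinesins, CENPE included, were measured. Of these 20 were called lower at each dose, beside 23.0% and 23.5% of all genes, and 14 were called lower at 5 ng than at 3 ng, beside 0.755%. Their median was -2.23 at 3 ng and -3.29 at 5 ng. ASPM, a spindle pole protein, was at -4.58 ± 0.24 at 5 ng, the mitotic kinase PLK1 at -4.23 ± 0.21, and HMMR, a spindle assembly factor, at -3.96 ± 0.23.

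Partners of the transport kinesins were mixed. Of 22 measured light chains and cargo adaptors, 5 were called lower and 1 higher at 3 ng, and 5 lower and 3 higher at 5 ng, on the deposited values. The shares of all genes called lower were 23.0% and 23.5%, and those called higher 1.50% and 4.52%, so the count of lower members was near the background. After quantile normalization the counts were 0 lower and 6 higher at 3 ng and 1 lower and 10 higher at 5 ng, beside 13.0% and 18.0% of all genes lower and 14.9% and 19.7% higher. TRAK1, the adaptor that ties kinesin to mitochondria, was at 0.47 ± 0.14 and 1.13 ± 0.14 (limma adjusted p = 0.022 and 4e-06) and was also called between the doses at 0.66. Leaving out replicate 2 or 3 of the uninduced arrays, or any of replicates 1 to 3 at 3 ng, ended its call at 3 ng. Leaving out replicate 4 of either dose ended the call between the doses. MADD, an adaptor of KIF1B, was at -0.58 at 5 ng, KIFBP, which blocks several kinesin motors, at -0.55, and BORCS5, which couples lysosomes to kinesins, at -0.54. After quantile normalization MADD, KIFBP and BORCS5 were at -0.18, -0.15 and -0.27, and of these KIFBP passed.

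Cytoplasmic dynein and dynactin form the motor that walks against most kinesins. Of 21 measured members and cofactors, 4 were called lower at 3 ng and 1 at 5 ng, with 0 higher by limma at either dose, also at an unadjusted p under 0.05. Of all genes 23.0% and 23.5% were called lower and 1.50% and 4.52% higher. At that unadjusted p 397 and 1042 of 18417 genes were higher. After quantile normalization 11 of the 21 were called higher at each dose, beside 14.9% and 19.7% of all genes. NDE1, a dynein cofactor, was the one called lower at 5 ng. It was at -1.13 ± 0.13 at 3 ng and -0.63 ± 0.13 at 5 ng (limma adjusted p = 2.7e-06 and 0.0011). After quantile normalization it was at -0.69 and -0.23, and the latter did not pass.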

How the data were processed

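Total RNA from 20 samples was labelled and hybridised to 20 Affymetrix arrays. The authors deposited 1 value per transcript cluster and array, which lie on a log2 scale to judge by their range and by the naming of GCRMA; the submitters' processing notes list limma, Affymetrix Power Tools, GCRMA and GCOS, with no version or role. No array-to-array scaling step is given in the sources used here, and no detection call. Deposited values were used without further scaling, and quantile-normalized values beside them.

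Of 33297 clusters, 19460 had 1 symbol in the platform annotation, 1754 several and 12083 none or no entry, and 769 genes had more than 1 cluster. Limma 3.58.1 under R 4.3.3 fitted 1 mean per group to all 20 arrays (15 residual degrees of freedom, empirical Bayes), with Benjamini-Hochberg adjustment over 18417 genes and a threshold of 0.05. The script was tested on simulated data. The number of arrays limits the precision. Groups came from the labels.

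Values per array are given for every mitotic kinesin and for the other kinesins called at 5 ng for 24 h in 1 direction on both scales. Up to 4 members of each partner list are named, those with the largest called differences, and CENPE, CDKN1A and MKI67 whatever their values. The kinesins, their classes and the lists were chosen with earlier results of these data known. Promoter windows come from a RefSeq table (GRCh38.p14) and were searched for exact words on both strands. Alternatives were quantile normalization, array centring, leaving out the dimmest 30% of genes, the mean of a gene's clusters, fits of the compared groups alone, trended robust variances, a replicate block and leaving out each array.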

Additional observations from a re-analysis of the deposited data

Results flagged for a closer look

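In groups of 4 arrays, an array was singled out where its gap to the nearest of the others, divided by the range of the group, was above Dixon's critical value for 4 samples. Chance does this in about 1 of 20 groups, and here it happened in 9 of 205 (4.39%). Among the mitotic kinesins, all at 3 ng for 24 h, these were KIF11 in replicate 2 at 5.79, above the other three, and, below the others of their group, KIF20A at 6.76 and KIF20B at 4.38, both in replicate 4. Among the transport kinesins they were KIF13A in replicate 4 of 3 ng at 24 h at 8.07, KIF5C in replicate 1 of 3 ng at 24 h at 2.34, KIF21A in replicate 1 of 5 ng at 12 h at 7.15 and KIF3C in replicate 2 of 0 ng at 6.95. Among the other kinesins they were KIF25 at 3.64 and KIF6 at 1.53, both in replicate 2 of 5 ng at 24 h.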

How the results depend on the processing

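The counts of mitotic kinesins called lower were within 1.5 times of those reported under every alternative run, except for 3 ng at 12 h, where 1 was called: 7 with array centring, 4 with quantile normalization, 3 with the dimmest genes left out, 3 with trended robust variances, 0 with only the compared groups in the fit, and 0 to 10 on leaving out 1 array (10 without replicate 2 of 3 ng at 12 h). Leaving out 1 array gave 12 at 3 ng and at 5 ng for 24 h, 8 to 9 between the doses at 24 h and 8 to 11 for 5 ng at 12 h. For 3 ng at 12 h array centring called 2744 of all 18417 genes lower, and quantile normalization 1367. How many of all genes were called under the other alternatives was not analysed here.

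The counts of transport kinesins called higher depended on the scale. With array centring and with quantile normalization they were 3 and 6 at 3 ng for 24 h (0 reported), 9 and 10 at 5 ng (1 reported), 3 and 3 between the doses at 24 h (1), 1 and 1 between the doses at 12 h (0), 1 and 3 for 3 ng at 12 h (0), 3 and 6 for 5 ng at 12 h (1), 2 and 3 from 12 to 24 h at 3 ng (0) and 2 and 6 at 5 ng (0). In the same order, centring called 1335, 3020, 1084, 293, 877, 1446, 652 and 1164 of all 18417 genes higher. Quantile normalization called 2737, 3633, 1126, 380, 1323, 2147, 1567 and 1799 of them higher. For 5 ng at 12 h the transport count was 0 with only the compared groups in the fit and 0 to 1 on leaving out 1 array, and between the doses at 24 h it was 0 to 0 on leaving out any array of those groups. The counts of transport kinesins called lower became 1 with quantile normalization from 12 to 24 h at 3 ng and at 5 ng (0 reported) and for 3 ng at 12 h (0 reported, 1 with centring), and 2 for 5 ng at 12 h (1 reported). In the same order, quantile normalization called 1263, 1524, 1367 and 2597 of all genes lower. Centring called 2744 of them lower for 3 ng at 12 h. On leaving out 1 array the transport counts were 1 to 2 at 3 ng for 24 h (2 without replicate 3 of 0 ng), and 0 to 1 from 12 to 24 h at 3 ng (1 without replicate 3 of 3 ng at 12 h) and for 3 ng at 12 h (1 without replicate 2). KIFBP changed sign with quantile normalization, to 0.01 at 3 ng for 24 h and to 0.18 from 12 to 24 h at 3 ng. Apart from the scale itself, the cause was not tested.

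The labels number the arrays 1 to 4 in each group. Deviations from the group means of same-numbered arrays correlated from -0.179 to 0.501 (median 0.0585). Of 40 pairs 13 were over 0.1, and 10 of 20 arrays correlated best with their own number. The labels do not say what the numbers stand for, and these values do not settle it. The main fit did not take the numbers as pairs. With the replicate number as a block 3 mitotic kinesins were called lower for 3 ng at 12 h (1 without it), and no other count moved by over 1.5 times.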
